A study of Homo sapiens with 9 samples.

Results

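The 10 genes described here, AXIN2, LGR5, ASCL2, MYC, NKD1, TCF7, LEF1, RNF43, ZNRF3 and SP5, are target genes of Wnt signaling, and several of them mark stem cells of the intestinal crypt. They were chosen by symbol from the 60591 symbols of the count table, and all 10 were found and passed the expression filter with which 15944 genes were tested. RNA was measured in undifferentiated Caco-2 (uCaco-2), a proliferating human colon adenocarcinoma cell line whose APC gene is truncated. The cells were kept for 24 h in medium with 300 μM cobalt (II) chloride (CoCl2), in medium with 5 μM of an oxyquinoline derivative (OD), or in fresh medium (control), and all 3 media held 0.5% DMSO. Both agents are used as chemical activators of hypoxia-inducible factor (HIF). Each condition had 3 biological replicates of this 1 line, so the libraries vary by culture and not by donor.

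In Wnt signaling, a secreted ligand binds a Frizzled receptor together with LRP5 or LRP6, the complex that destroys beta-catenin is held back, and beta-catenin enters the nucleus, where it joins factors of the TCF/LEF family to switch on target genes. In the crypt this keeps stem cells dividing, and in most colon cancers a damaged APC leaves the pathway active without ligand. Many of its targets encode brakes on the pathway itself, and their transcript levels are commonly read as a measure of its output.

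The genes fall into groups by role. AXIN2 is a scaffold of the beta-catenin destruction complex and NKD1 binds Dishevelled, and both restrain the pathway inside the cell. RNF43 and ZNRF3 are related membrane ubiquitin ligases that remove Frizzled receptors. LGR5 is a receptor for R-spondins, which hold these ligases back, and is the best known marker of crypt stem cells. TCF7 and LEF1 are the DNA-binding partners of beta-catenin, and ASCL2, SP5 and MYC are other transcription factors, ASCL2 specifying the stem cell state, SP5 acting on TCF/LEF targets and MYC driving growth. On GRCh38 with GENCODE release 44, AXIN2 (ENSG00000168646) lies on chromosome 17 from 65528563 to 65561648, RNF43 (ENSG00000108375) on chromosome 17 from 58353676 to 58417595, and LGR5 (ENSG00000139292) on chromosome 12 from 71439798 to 71586310. ASCL2 (ENSG00000183734) lies on chromosome 11 from 2268498 to 2270588, NKD1 (ENSG00000140807) on chromosome 16 from 50548396 to 50649249, and TCF7 (ENSG00000081059) on chromosome 5 from 134114681 to 134151865. LEF1 (ENSG00000138795) lies on chromosome 4 from 108047545 to 108168956, ZNRF3 (ENSG00000183579) on chromosome 22 from 28883572 to 29057488, and SP5 (ENSG00000204335) on chromosome 2 from 170715337 to 170718078.

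RefSeq promoter windows, 250 bases before to 50 after a transcription start on GRCh38.p14, were at hand for 4 of the 10 genes, TCF7, LEF1, RNF43 and SP5, in 6 windows. They were searched on both strands for CTTTGA, the core of TCF/LEF sites, and for ACGTG, the core of HIF response elements, which do not overlap each other. The first was found in 1 of the 6 windows, that of SP5, and in 12.9% of all 35116 windows, and the second in no window of these genes and in 21.4% of all. The SP5 promoter is shown because its match repeats: it holds 3 copies, with first bases 147, 109 and 83 bases before the start. The sequence is that of the 250 bases before the start, chr2:170715087-170715336 on the plus strand, with CTTTGA or its reverse complement in capitals.
SP5: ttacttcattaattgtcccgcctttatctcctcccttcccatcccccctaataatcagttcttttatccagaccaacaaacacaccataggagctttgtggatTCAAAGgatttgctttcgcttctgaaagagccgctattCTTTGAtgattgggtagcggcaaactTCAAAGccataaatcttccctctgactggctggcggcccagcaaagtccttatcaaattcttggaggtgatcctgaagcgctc
These matches are letters in a sequence, and binding to them was not measured.

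Total counts were 15998136 to 24209427 per library, and the 10 genes had between 37 counts (LEF1 with CoCl2) and 2140 counts (MYC in control cells). Levels are given in CPM, the usual normalised read count that divides by library size, here also adjusted by TMM factors, which correct for shifts in library composition and were 0.770 to 0.795 with CoCl2 and at least 1.11 in every other library. Without these factors, with library size alone, the median over all genes tested with CoCl2 shifted on the log2 scale from -0.049 to -0.55, with 11.5% of all genes called higher and 36.6% lower in place of 19.9% and 23.4%, where a call is defined below. Calls, and numbers of list genes called, that this choice changes are given below with library size alone as well. Of 9 markers of colon epithelium, 8 were detected and CDX1 had no count in any library, while PTPRC, CD68, COL1A2 and DCN, markers of immune and stromal cells, had at most 3 counts in every library. The other 4 such markers, PECAM1, VWF, COL1A1 and LUM, were detected, and the summed level of all 8 was 16.1 to 19.7 CPM in the control libraries, 12.3 to 13.7 with CoCl2 and 25.2 to 26.0 with OD, while the 9 epithelial markers summed to 11100 to 11700, 13500 to 14500 and 10600 to 11100 CPM. The part of these other markers in the results below was not tested. In such bulk samples fewer cells of a type and less RNA per cell cannot be told apart.

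With CoCl2, 6 of the 10 genes were called lower than in the control libraries, namely NKD1, LEF1, ASCL2, TCF7, ZNRF3 and SP5, where a call needs an adjusted p below 0.05 by edgeR's quasi-likelihood test together with a log2 fold change beyond 1 in either direction. Of all genes tested, 23.4% were called lower. With library size alone 8 of the 10 were called lower, MYC and RNF43 being added, beside 36.6% of all genes. A further 3 genes, MYC, RNF43 and LGR5, were lower with an adjusted p under 0.05 but a smaller fold change, so that 9 passed the adjusted p lower (42.8% of all genes) and 1 higher (40.4%). AXIN2 stood apart, with a level slightly above that of control cells. In all, 9 genes were lower without overlap between the CoCl2 and control libraries (42.9% of all genes tested) and AXIN2 was higher without overlap (40.5%). The median log2 fold change of the 10 genes was -1.18, beside -0.049 over all genes, and with library size alone -1.69 beside -0.55. No gene of the 10 was called higher by edgeR or by DESeq2, and 1, AXIN2, was higher at an unadjusted p under 0.05.

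**Figure D1:**
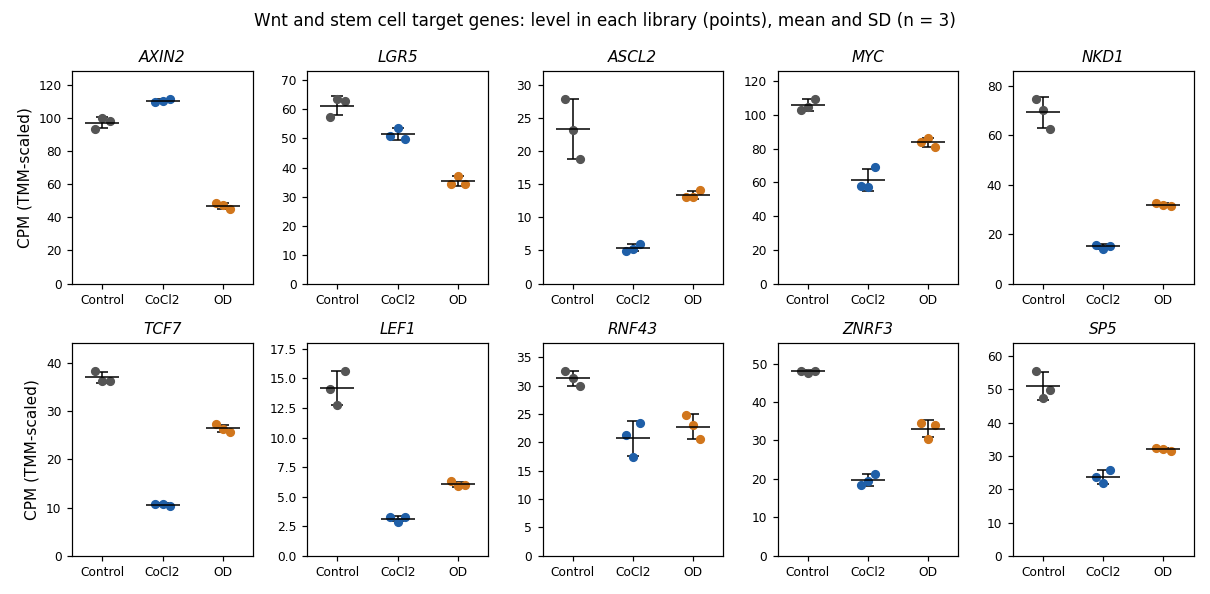
Level of each gene (vertical axis, TMM-scaled CPM, starting at 0) in the 3 control, 3 CoCl2 and 3 OD libraries, with points for libraries and bars for the mean and SD. In 9 panels the CoCl2 points lie below the control points, and for AXIN2 they lie at 109.98 to 112, above them, while the OD points lie below the control points in all 10.

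With OD, 3 of the 10 genes were called lower than in the control libraries, LEF1, NKD1 and AXIN2 (4.16% of all genes tested), and the other 7 were lower with an adjusted p under 0.05 and a smaller fold change. All 10 were thus lower with an adjusted p under 0.05 (33.3% of all genes) and without overlap between the OD and control libraries (34.3%). The median log2 fold change was -0.73, beside -0.011 over all genes. No gene of the 10 was called higher by either tool, and 0 were higher at an unadjusted p under 0.05 or without overlap, where 32.3% of all genes passed the adjusted p higher and 33.7% were higher without overlap. A stricter test, glmTreat, which asks whether a fold change exceeds a log2 of 1, called none of them lower with OD, with adjusted p of 0.0644 for LEF1, 0.0882 for NKD1 and 0.737 for AXIN2, which are the highest of their ranges over the alternatives, from 2.02e-30, 7.41e-77 and 3.26e-83.

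Between the treatments themselves, AXIN2 was called higher with CoCl2 than with OD (17.5% of all genes tested) and ASCL2, NKD1 and TCF7 were called lower (23.8%). LGR5 was higher, and MYC, LEF1, ZNRF3 and SP5 were lower, with an adjusted p under 0.05 and a smaller difference, so that 2 passed higher (40.2% of all genes) and 7 lower (43.2%), the same numbers as without overlap (40.3% and 43.5%). RNF43 alone of the 10 did not pass this test with TMM scaling. With library size alone AXIN2 was no longer called higher (8.47% of all genes were), and LEF1 and ZNRF3 joined the genes called lower, which made 5 (37.8% of all genes). Every comparison of single genes by an exact two-sided permutation test gave p = 0.1, the smallest that 3 libraries against 3 allow, except RNF43 between the treatments with p = 0.5.

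**Figure D2:**
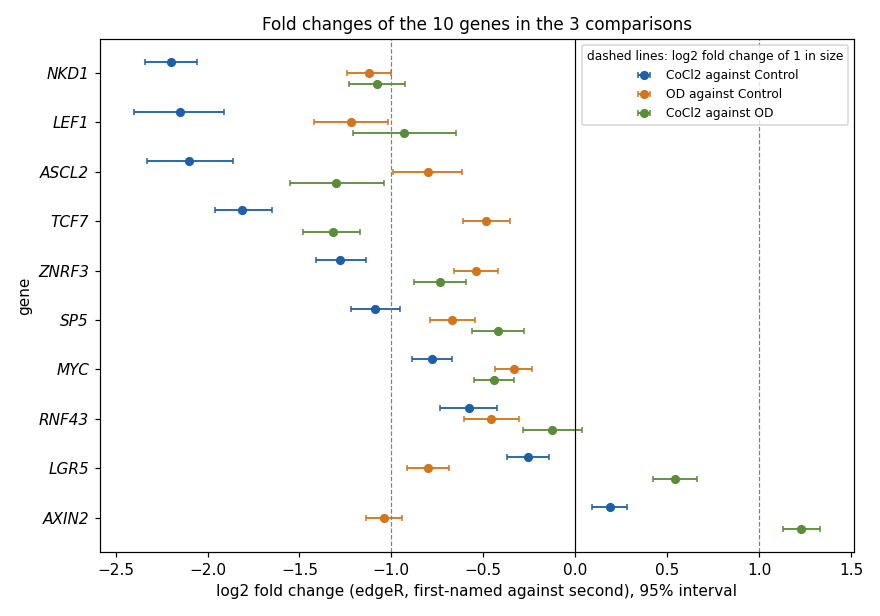
Log2 fold change of each gene (horizontal axis) with its 95% interval, for each treatment against control and for CoCl2 against OD, and dashed lines at a log2 fold change of 1 in size. NKD1, LEF1 and ASCL2 lie farthest to the left with CoCl2, at -2.20, -2.15 and -2.10, and AXIN2 is at 0.19 with CoCl2 and -1.04 with OD.

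Among the brakes inside the cell, AXIN2 had 93.7, 100.01 and 98.2 CPM in the control libraries, 109.98, 110.3 and 112 with CoCl2 and 48.8, 47.6 and 45.2 with OD. The mean of the OD libraries was 48.5% of the control mean, and the CoCl2 libraries lay close together just above the control libraries. In the fit its log2 fold change came to 0.19 with CoCl2 (standard error 0.048, 95% interval 0.092 to 0.28, adjusted p = 0.000328), -1.04 with OD (standard error 0.050, adjusted p = 1.15e-27) and 1.23 between CoCl2 and OD (standard error 0.050, adjusted p = 4.33e-32). The sign with CoCl2 rests on the scaling. As a plain share of the library total, in the same unit, AXIN2 had 103.7, 111.5 and 109.4 in control cells and 84.5, 87.5 and 88.2 with CoCl2, a log2 fold change of -0.32 (adjusted p = 4.97e-08, the smallest over the alternatives, which reached 1 with glmTreat). The difference between the treatments kept its sign, at 0.68 with library size alone.

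NKD1 had 74.8, 70.3 and 62.5 CPM in the control libraries, 15.6, 14.0 and 15.4 with CoCl2 and 32.4, 31.7 and 31.3 with OD. The 3 conditions did not overlap, and the order was the reverse of that of AXIN2 between the treatments. By edgeR the log2 fold change reached -2.20 with CoCl2 (standard error 0.070, adjusted p = 3.53e-38), -1.12 with OD (standard error 0.059, adjusted p = 1.13e-25) and -1.08 between them (adjusted p = 1.34e-20). Within a library, AXIN2 had 1.42 ± 0.16 counts (SD, n = 3) for each count of NKD1 in the control libraries, 1.48 ± 0.034 with OD and 7.40 ± 0.43 with CoCl2, a ratio in which no scaling enters.

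Of the ligases that remove Frizzled receptors, ZNRF3 had 48.1, 47.6 and 48.1 CPM in the control libraries, 18.3, 19.6 and 21.3 with CoCl2 and 34.5, 30.5 and 34.03 with OD. The control libraries were nearly equal and the treated libraries lay below them in 2 separate groups. The fit gave a log2 fold change of -1.28 with CoCl2 (adjusted p = 2.58e-26) and -0.54 with OD (adjusted p = 5.64e-12). RNF43 had 32.6, 31.4 and 30.0 CPM in the control libraries, 21.3, 17.4 and 23.4 with CoCl2 and 24.8, 23.0 and 20.5 with OD. Both sets of treated libraries lay below the control libraries and overlapped each other. The log2 fold change of RNF43 came to -0.58 with CoCl2 (standard error 0.078, adjusted p = 1.4e-09) and -0.46 with OD (standard error 0.074, adjusted p = 2.53e-07), and the difference between the treatments was -0.12 (95% interval -0.28 to 0.037, adjusted p = 0.145). With library size alone that difference was -0.67 (adjusted p = 4.8e-10, the smallest of its range up to 1), and RNF43 was called lower with CoCl2 than in control cells, at -1.09 (adjusted p = 9.35e-17, in a range of 9.48e-18 to 1). The number of RNF43 counts for each ZNRF3 count was 0.653 ± 0.028 in the control libraries, 0.692 ± 0.079 with OD and 1.05 ± 0.14 with CoCl2. RNF43 shares 68.4% of its exonic bases with another annotated gene on the same strand, and AXIN2 25.3%, and since the sources do not say how the authors counted reads that fit several genes, part of their reads may be missing from these counts.

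LGR5, the R-spondin receptor, had 57.5, 63.8 and 62.8 CPM in the control libraries, 50.9, 53.8 and 49.8 with CoCl2 and 34.3, 37.2 and 34.2 with OD. As for AXIN2, the OD libraries were the lowest and the CoCl2 libraries were near the control level. In the fit its log2 fold change came to -0.26 with CoCl2 (standard error 0.056, 95% interval -0.37 to -0.14, adjusted p = 4.01e-05), -0.80 with OD (standard error 0.057, adjusted p = 1.4e-19) and 0.54 between CoCl2 and OD (adjusted p = 1.12e-12). The last of these rests on the scaling. As a plain share of the library total, in the same unit, LGR5 had 39.2, 42.7 and 39.2 with CoCl2 and 39.0, 42.7 and 39.2 with OD, and the log2 difference was -0.0036 (adjusted p = 0.957, within a range of 9.61e-18 to 1 over the alternatives). The fall against control with CoCl2 was then -0.76.

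ASCL2, the stem cell factor, had 27.9, 23.1 and 18.8 CPM in the control libraries, 4.98, 5.26 and 5.98 with CoCl2 and 13.03, 13.1 and 14.1 with OD. The control libraries were spread the most among the 10 genes relative to their mean, and yet the lowest of them lay above every treated library. By edgeR the log2 fold change reached -2.10 with CoCl2 (standard error 0.117, adjusted p = 3.37e-20), -0.80 with OD (standard error 0.093, adjusted p = 5.09e-10) and -1.3 between them (adjusted p = 2.15e-12). ASCL2 and LGR5, both markers of the same crypt cells, parted with CoCl2: there were 2.72 ± 0.64 LGR5 counts for each ASCL2 count in the control libraries, 2.64 ± 0.20 with OD and 9.59 ± 1.10 with CoCl2.

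Of the partners of beta-catenin, TCF7 had 38.4, 36.3 and 36.3 CPM in the control libraries, 10.8, 10.8 and 10.2 with CoCl2 and 27.2, 26.3 and 25.7 with OD. LEF1 had 14.1, 12.8 and 15.6 CPM in the control libraries, 3.30, 2.86 and 3.30 with CoCl2 and 6.31, 5.90 and 5.96 with OD. For both genes the control libraries were the highest and the CoCl2 libraries the lowest, without overlap, but TCF7 kept more of its level with OD. For TCF7 the log2 fold change came to -1.81 with CoCl2 (standard error 0.077, adjusted p = 2.9e-31) and -0.48 with OD (standard error 0.063, adjusted p = 7.19e-10). That of LEF1 was -2.15 with CoCl2 (standard error 0.123, adjusted p = 1.04e-24) and -1.22 with OD (standard error 0.101, adjusted p = 7.29e-17). There were 2.62 ± 0.27 TCF7 counts for each LEF1 count in the control libraries, 3.37 ± 0.34 with CoCl2 and 4.36 ± 0.083 with OD. SKP1, a gene on the opposite strand that shares 210 exonic bases with TCF7 (2.08% of those of TCF7), moved the other way with CoCl2, with a log2 fold change of 1.24 (adjusted p = 1.07e-37).

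SP5 had 55.6, 47.6 and 49.9 CPM in the control libraries, 23.8, 21.7 and 25.9 with CoCl2 and 32.5, 32.1 and 31.6 with OD. The conditions did not overlap, with the CoCl2 libraries the lowest. The fit gave a log2 fold change of -1.09 with CoCl2 (standard error 0.067, adjusted p = 3.27e-23) and -0.67 with OD (standard error 0.061, adjusted p = 5.5e-15). MYC (ENSG00000136997), on chromosome 8, had 103.0, 104.9 and 109.8 CPM in the control libraries, 58.0, 57.3 and 68.9 with CoCl2 and 84.0, 86.5 and 81.1 with OD. Its order of conditions was the same as that of SP5, with smaller log2 fold changes against control. The difference between CoCl2 and OD was of like size, at -0.42 for SP5. MYC had a log2 fold change of -0.78 with CoCl2 (standard error 0.054, adjusted p = 1.37e-20), -0.34 with OD (standard error 0.051, adjusted p = 5.23e-08) and -0.44 between them (adjusted p = 6.58e-11). With library size alone MYC was called lower with CoCl2, at -1.28 (adjusted p = 1.14e-24, in a range of 1.31e-55 to 1 over the alternatives).

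Compared per kilobase of annotated exon, so that genes of different length can be set side by side, the levels in control cells ran from SP5 at 24.6 ± 2.01 CPM per kilobase (SD, n = 3) to LEF1 at 2.65 ± 0.27. SP5 lay apart from AXIN2 (18.7), MYC (17.3) and ASCL2 (15.7), which followed it. The ASCL2 libraries (12.7 to 18.8) overlapped those of both MYC and AXIN2, while AXIN2 and MYC did not overlap. LGR5 (11.7), ZNRF3 (6.86) and RNF43 (4.95) came next without overlap between neighbours, then NKD1 (3.98) and TCF7 (3.66), whose libraries overlapped. With CoCl2 the order was led by AXIN2 at 21.3 ± 0.21, well apart from SP5 (11.5), MYC (10.1) and LGR5 (9.86), of which neighbours overlapped. ASCL2 (3.64), RNF43 (3.27) and ZNRF3 (2.82) also overlapped as neighbours, and TCF7 (1.05), NKD1 (0.864) and LEF1 (0.588) followed apart. With OD the order stayed near that of control cells, from SP5 (15.5), MYC (13.7), AXIN2 (9.08) and ASCL2 (9.02) to LGR5 (6.75), ZNRF3 (4.72), RNF43 (3.60), TCF7 (2.62), NKD1 (1.83) and LEF1 (1.13), and only AXIN2 and ASCL2 overlapped as neighbours. These levels use the union of all annotated exons, 17359 bases for NKD1 and 1485 for ASCL2, which need not be the length of the transcript made in these cells.

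**Figure D3:**
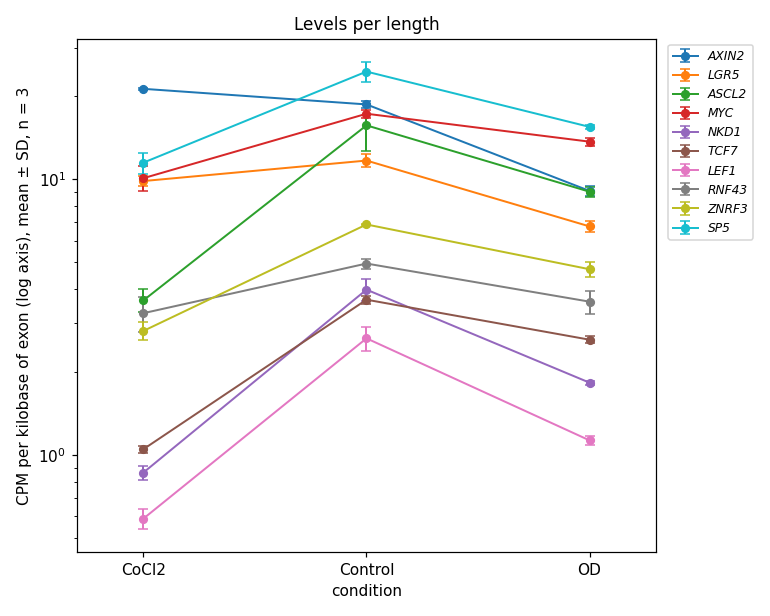
Mean level per kilobase of exon with its SD (vertical axis, log scale) in CoCl2, control and OD libraries (n = 3 each), with a line joining the means of a gene. AXIN2 is 2nd of the 10 in the control libraries, 1st with CoCl2 and 3rd with OD, and LEF1 is the lowest in every condition.

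The summed level of the 10 genes was 545.7, 537.7 and 532.0 CPM in the control libraries, 316.9, 313.0 and 336.0 with CoCl2 and 337.9, 334.0 and 323.6 with OD. With TMM scaling the sums with CoCl2 and OD overlapped. As a plain share of the library total they were 243.6, 248.4 and 264.7 with CoCl2 and 383.8, 383.4 and 370.9 with OD, without overlap, and 592.8 to 603.8 in control cells. To compare the genes without any scaling, each was set against the geometric mean of the other 9 in the same library. The log2 ratio of AXIN2 was 1.10, 1.27 and 1.26 in the control libraries, 2.76, 2.83 and 2.69 with CoCl2 and 0.895, 0.896 and 0.841 with OD. That of LGR5 was 0.47 ± 0.13 in the control libraries, 1.53 ± 0.14 with CoCl2 and 0.41 ± 0.085 with OD. RNF43 and MYC also gained on the others with CoCl2, from -0.61 ± 0.032 to 0.062 ± 0.17 and from 1.34 ± 0.093 to 1.81 ± 0.092. NKD1, LEF1, ASCL2 and TCF7 lost ground with CoCl2, NKD1 from 0.66 ± 0.11 to -0.44 ± 0.069, LEF1 from -1.88 ± 0.17 to -2.93 ± 0.083, ASCL2 from -1.10 ± 0.27 to -2.08 ± 0.10 and TCF7 from -0.34 ± 0.011 to -1.0 ± 0.12. With OD, MYC (1.80 ± 0.047) and RNF43 (-0.295 ± 0.12) also gained, and NKD1 (0.246 ± 0.0061) and LEF1 (-2.41 ± 0.035) also lost ground. ASCL2 stayed near its control ratio with OD (-1.14 ± 0.098), and TCF7 gained (-0.051 ± 0.013). The genes of this set therefore changed by unequal amounts under any scaling. These ratios were chosen after the values were seen and were not tested.

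**Figure D4:**
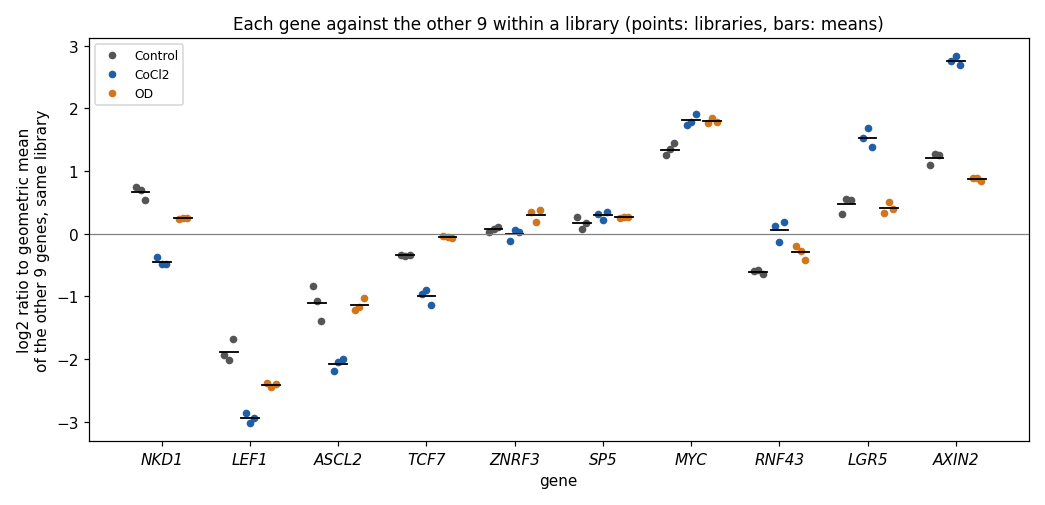
Log2 ratio of each gene to the geometric mean of the other 9 genes in the same library (vertical axis), with points for the libraries and bars for the means of control, CoCl2 and OD (n = 3 each). The CoCl2 points of AXIN2, between 2.69 and 2.83, and of LGR5 lie above their control points, and those of NKD1, LEF1, ASCL2 and TCF7 lie below.

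Of 13429 genes that averaged 1 CPM or more, those whose log2 CPM over the 9 libraries ran closest to a member, each centred on its mean, were found by the root mean square difference. For AXIN2 they were ACTB, which encodes beta-actin (0.055 on the log2 scale), and NIP7, a ribosome assembly factor (0.067), and the nearest of the other 9 genes was LGR5, at 0.29. For LGR5 they were ORC2 (0.046), of the replication origin complex, and RNASEH1 (0.052). For LEF1 they were CAD (0.093), which starts pyrimidine synthesis, and MRPL12 (0.096), of the mitochondrial ribosome, and for NKD1 they were CAD (0.095) and DCDC2 (0.096). For TCF7 they were IRAK1 (0.049) and QPRT (0.062), for ASCL2 B3GALT6 (0.106) and SLC19A3 (0.117), and for MYC GEMIN4 (0.046) and TSPAN15 (0.050). For RNF43 they were ALG1 (0.059) and TDP1 (0.075), for ZNRF3 SAMD1 (0.056) and IARS1 (0.060), and for SP5 PARP1 (0.058) and CLUH (0.062). Among the members themselves, the closest pair was NKD1 and LEF1, at 0.135.

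The other genes of the pathway were described by lists taken whole. Among 19 WNT ligands, 13 were tested, and with CoCl2 5 were called lower and 3 higher, beside 23.4% and 19.9% of all genes tested. With library size alone 9 were called lower and 2 higher, beside 36.6% and 11.5%. With OD, 6 of the 13 were called higher (9.09% of all genes). WNT11 had 13.5 ± 0.98 CPM (SD, n = 3) in the control libraries, 10.9 ± 0.84 with CoCl2 and 49.6 ± 1.89 with OD, a log2 fold change of 1.88 with OD (adjusted p = 2.27e-33). WNT9A was higher with both agents, with 0.846 ± 0.41 CPM in the control libraries, 2.24 ± 0.24 with CoCl2 and 6.99 ± 0.84 with OD, and its log2 fold change with CoCl2 was 1.44, or 0.94 with library size alone. WNT10B and WNT10A, which signal through beta-catenin, fell with CoCl2, with log2 fold changes of -2.73 and -2.46 (adjusted p = 3.32e-17 and 2.7e-09). The median log2 fold change of the ligands came to -0.98 for CoCl2 (-1.48 with library size alone) and 0.57 for OD. Of the 13, 9 were called lower with CoCl2 than with OD, beside 23.8% of all genes. With library size alone 10 were, beside 37.8%.

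Of 21 receptors and R-spondins, 14 were tested, and with CoCl2 6 were called lower and 1 higher, beside 23.4% and 19.9% of all genes. Scaled by library size alone, 9 were called lower, beside 36.6% of all genes, and the 1 higher lost its call. FZD2, a Frizzled receptor, fell from 28.4 ± 1.56 to 5.03 ± 0.53 CPM with CoCl2 and to 10.1 ± 0.32 with OD. ROR1, a receptor for WNT5A, fell from 70.0 ± 4.09 to 14.0 ± 0.46 and 27.2 ± 1.43 CPM. These were the 2 receptors called lower with OD, beside 4.16% of all genes, and 1 was called higher, beside 9.09%. The receptor called higher with CoCl2 was LGR4, a relative of LGR5 that also binds R-spondins, from 44.7 ± 3.46 to 92.8 ± 4.58 CPM, and its log2 fold change of 1.05 was 0.54 with library size alone. FZD4 was the receptor called higher with OD, from 40.3 ± 1.66 to 99.7 ± 8.30 CPM. The 4 R-spondins had at most 4 counts in any library.

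Of 17 secreted or membrane inhibitors, 10 were tested. With CoCl2 4 were called lower and 2 higher, beside 23.4% and 19.9% of all genes. With library size alone these were 4 and 1, beside 36.6% and 11.5%. With OD 1 was called lower and 2 higher, beside 4.16% and 9.09%. Scaled by library size alone, 1 was lower and 3 higher with OD, beside 3.65% and 9.73%. DKK1, which blocks LRP5 and LRP6, was by far the most abundant, with 1004.8 ± 23.2 CPM in the control libraries, 1289 ± 39.6 with CoCl2 and 374.8 ± 6.37 with OD. Its log2 fold change was -1.42 with OD (adjusted p = 3.34e-40) and 0.36 with CoCl2 (adjusted p = 4.75e-13), the latter -0.15 with library size alone, so that it shared the order of conditions of AXIN2. SFRP5 and SOSTDC1 fell with CoCl2, with log2 fold changes of -2.42 and -2.36 (adjusted p = 1.33e-11 and 1.45e-14), and SFRP5 rose by 1.06 with OD (adjusted p = 2.12e-08).

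The 18 genes of the destruction complex and its transducers were all tested. With CoCl2, 6 were called higher and 2 lower, beside 19.9% and 23.4% of all genes. With library size alone, where 11.5% of all genes were called higher and 36.6% lower, 2 were called higher and 2 lower. APC, the scaffold lost in colon cancer, rose from 48.3 ± 4.18 to 153.4 ± 10.1 CPM (log2 fold change 1.66, adjusted p = 2.39e-37, or 1.16 with library size alone). TNKS, the tankyrase that marks axins for destruction, rose from 32.4 ± 2.90 to 106.1 ± 2.57 CPM (log2 fold change 1.71, or 1.2 with library size alone). AMER1 fell from 40.1 ± 1.34 to 10.8 ± 0.33 CPM. NKD2, the paralog of NKD1, had 4.21 ± 0.42 CPM in the control libraries, 1.79 ± 0.44 with CoCl2 and 11.4 ± 0.83 with OD, where it was the 1 gene of this list called higher, with a log2 fold change of 1.44. CTNNB1, which encodes beta-catenin and was chosen after its values were seen, had 259.0 ± 14.3 CPM in the control libraries, 324.4 ± 1.96 with CoCl2 and 245.3 ± 6.01 with OD, and its log2 fold change with CoCl2 was 0.32 by TMM and -0.18 with library size alone.

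All 13 nuclear partners of beta-catenin were tested. With CoCl2 4 were called higher and 3 lower, beside 19.9% and 23.4% of all genes. With library size alone these were 1 and 5, beside 11.5% and 36.6% of all genes. TLE4, a corepressor, rose from 7.90 ± 0.28 to 22.6 ± 0.96 CPM, and its relative TLE2 fell from 12.4 ± 0.20 to 2.25 ± 0.15. CTNNBIP1, which blocks the binding of beta-catenin to TCF factors, fell from 9.72 ± 0.79 to 2.93 ± 0.37 CPM. TCF7L1 and TCF7L2, the other family members beside TCF7 and LEF1 and chosen after their values were seen, had log2 fold changes of -1.03 and 1.05 with CoCl2 (-1.53 and 0.55 with library size alone) and 0.48 and 0.30 with OD. With OD, 8 of the 13 passed the adjusted p and none was called. Of these, 4 were higher and 4 lower, beside 32.3% and 33.3% of all genes that passed it.

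Among 18 further Wnt target genes, of which 17 were tested, directions were mixed. With CoCl2, 5 were called lower and 5 higher, beside 23.4% and 19.9% of all genes. With library size alone these were 5 and 3, beside 36.6% and 11.5%. With OD 1 was called lower and 2 higher, beside 4.16% and 9.09%. EPHB2, a receptor of the crypt base, fell from 39.5 ± 3.03 to 4.45 ± 0.21 CPM with CoCl2 (log2 fold change -3.14, adjusted p = 1.83e-39). TCF4, a bHLH factor that is no member of the TCF/LEF family, fell from 95.9 ± 4.23 to 25.1 ± 1.87 CPM. FOSL1 and JUN, subunits of AP-1, rose by 3.73 and 1.72 on the log2 scale with CoCl2 (adjusted p = 2.14e-43 and 2.16e-38). With OD, BMP4 fell by 1.19 (adjusted p = 9.45e-30), and CEMIP and EPHB3 rose by 1.83 and 1.3 (adjusted p = 1.49e-16 and 3.02e-15). BMP4 and EPHB3 were called in the same directions with CoCl2, at -1.55 and 1.67 (adjusted p = 2.89e-35 and 1.9e-20). CEMIP did not pass with CoCl2, at -0.44. The median of the list with CoCl2 was 0.29, and -0.22 with library size alone.

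**Figure D5:**
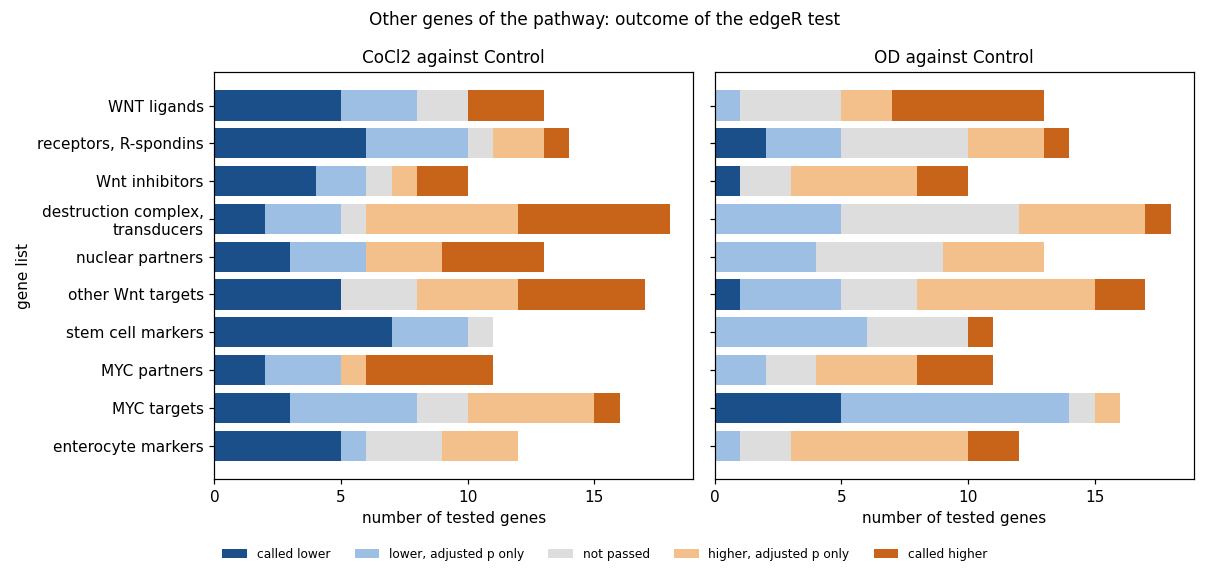
Number of tested genes (horizontal axis) of each list of Wnt, stem cell, MYC and enterocyte genes by outcome of the edgeR test for CoCl2 and for OD against control, where called means an adjusted p below 0.05 together with a log2 fold change beyond 1 in either direction. With TMM scaling, 7 of 11 stem cell markers were called lower with CoCl2 (23.4% of all genes). With OD 5 of 16 MYC target genes were called lower (4.16%) and 6 of 13 WNT ligands higher (9.09%).

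Of 15 other markers of intestinal stem cells, 11 were tested. With CoCl2 7 were called lower, beside 23.4% of all genes, around a median log2 fold change of -1.73. With library size alone 8 were called lower, beside 36.6% of all genes, around a median of -2.24. CDCA7 fell from 81.4 ± 3.0 to 16.9 ± 2.16 CPM with CoCl2 (log2 fold change -2.26, adjusted p = 6.95e-40). PROM1, chosen after its values were seen, fell from 103.2 ± 4.93 to 28.8 ± 0.17 CPM with CoCl2, and its log2 fold change with OD was -0.12 (adjusted p = 0.0314). TERT, which encodes telomerase, was low throughout, with 1.32 ± 0.21 CPM in the control libraries, 0.180 ± 0.11 with CoCl2 and 2.87 ± 0.34 with OD, and was the gene of this list called higher with OD. With OD 6 of the 11 were lower with an adjusted p under 0.05 (33.3% of all genes) and none was called lower. Among these 6 were CDCA7 at -0.87, RGMB at -0.85 and BMI1 at -0.75, and the median of the list was -0.25. RGMB and BMI1 were chosen after their values were seen. OLFM4, a common companion of LGR5 in the crypt, had at most 5 counts in any library. Of 12 enterocyte markers, 5 were called lower with CoCl2 (23.4% of all genes), among them FABP1 and VIL1 with log2 fold changes of -2.59 and -2.45. A further 3, DPP4 (0.56), APOA1 (0.71) and MTTP (0.86), were higher with an adjusted p under 0.05 (40.4% of all genes). These 3 were chosen after their values were seen, and only APOA1 still passed with library size alone, at 0.21. The summed level of the 12 was 1460 to 1530 CPM in control cells and 1420 to 1490 with CoCl2. Most of that sum came from VIL1, APOA1 and DPP4, which moved in opposite directions. VIL1 fell from 612.7 to 112.2 CPM, while APOA1 rose from 547.2 to 894.7 and DPP4 from 290.1 to 428.4. The number called lower with CoCl2 was 6 with library size alone, beside 36.6% of all genes. With OD 2 were called higher, beside 9.09% of all genes, or 3 with library size alone, beside 9.73%. A further 7 were higher with an adjusted p under 0.05 by TMM, where 32.3% of all genes were, those called included.

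The partners of MYC were tested as 11 genes. With CoCl2 5 were called higher and 2 lower, beside 19.9% and 23.4% of all genes. With library size alone these were 4 and 3, beside 11.5% and 36.6%. With OD 3 were called higher, beside 9.09%. MXD1, which competes with MYC for MAX and represses its targets, had 10.0 ± 0.78 CPM in the control libraries, 102.7 ± 6.35 with CoCl2 and 49.8 ± 2.5 with OD, with log2 fold changes of 3.35 and 2.32 (adjusted p = 2.65e-48 and 2.53e-37). MXD4 rose by 2.55 with CoCl2 (adjusted p = 4.14e-40), and MXI1 rose by 2.04 with OD (adjusted p = 4.68e-30). Both were called higher with the other agent too, MXD4 at 1.5 with OD and MXI1 at 1.7 with CoCl2. MYCN and MYCL, relatives of MYC, fell with CoCl2, with log2 fold changes of -1.78 and -1.75 (adjusted p = 1.42e-21 and 6.58e-10). Of 16 MYC target genes, 5 were called lower with OD, beside 4.16% of all genes, or 4 with library size alone, beside 3.65%. A further 9 were lower by TMM with an adjusted p under 0.05, and the median of the list was -0.91. Of all genes, 33.3% were lower with an adjusted p under 0.05, those called included. With CoCl2 3 were called lower and 1 higher, beside 23.4% and 19.9% of all genes, around a median of -0.042. Scaled by library size alone, 6 were called lower around a median of -0.55, beside 36.6% of all genes, and the 1 higher lost its call. NOP56 and RRP9, factors of ribosome assembly, were lower with OD, at log2 fold changes of -1.2 and -1.42 (adjusted p = 1.19e-34 and 8.73e-31). CAD and CDK4 had log2 fold changes of -2.16 and -2.05 with CoCl2 (adjusted p = 3.25e-44 and 6.7e-41), and of -1.17 and -0.85 with OD. RRP12 rose by 1.31 with CoCl2 (adjusted p = 1.66e-36), or 0.81 with library size alone.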

How the data were processed

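Messenger RNA of uCaco-2 cells was sequenced as poly(A)-selected stranded libraries with single-end reads, in 3 libraries per condition. The authors assessed reads with FastQC 0.11.9, trimmed adapters with cutadapt 2.10, mapped them with STAR 2.7.5b on GRCh38 and deposited raw counts per GENCODE gene symbol. The counting tool, its strand setting and the treatment of reads shared between genes are not given in the sources used here. All 9 columns were used, 1 per library, with 15998136 to 24209427 counts each, and intervals cover the spread between these libraries only.

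With edgeR 4.0.16 under R 4.3.3, TMM factors were computed, followed by a robust quasi-likelihood fit over all 9 libraries with 1 mean per condition, and p-values were adjusted by Benjamini-Hochberg over all 15944 genes that passed its expression filter. Standard errors were derived from the fold change and its F statistic. The replicates are stated to be biological. Every replicate pair differed by more than sampling (chi-square over degrees of freedom 1.74 to 3.05) and was kept apart. Intervals for low counts, as for LEF1, are wider than for AXIN2. Before use the fit was run on simulated data in which few genes were changed, evenly up and down. The scaling with CoCl2, where many genes changed, was not checked by it.

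Groups were taken from sample titles. Coordinates, overlaps and exon lengths came from GENCODE release 44 (the authors counted on an earlier release), and promoter windows from RefSeq. The 10 genes and the 12 further lists were chosen with earlier results of these data known. From each list of pathway genes, at most 2 called rises and 2 called falls per treatment were eligible to be named, averaging 1 CPM or more and without overlap between libraries, and some of the eligible genes are given. Exceptions are marked as chosen after their values were seen. DKK1, NKD2, BMP4, EPHB3, CEMIP and MXI1 with CoCl2, MXD4, CAD and CDK4 with OD, and overlapping genes are given beside a named value. Alternatives were a fit on the 6 libraries of a comparison, DESeq2 1.42.0 on 9 or 6 libraries, upper-quartile factors, RLE factors, unscaled library sizes (library size alone), all genes without the filter, genes with 10 or more counts per library, a replicate block, each library left out in turn, glmTreat, and the adjusted p alone.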

Additional observations from a re-analysis of the deposited data

How the results depend on the processing

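Over 20 alternatives, 571 of 600 values of single genes kept their direction and their side of the threshold. The 2 that changed sign did so with library size alone, AXIN2 with CoCl2 at -0.32 and LGR5 between CoCl2 and OD at -0.0036. Library size alone also called 8 genes lower with CoCl2 and gave medians of the 10 genes of -1.69 with CoCl2 and -1.14 between CoCl2 and OD, with 0 genes called higher (2 at an unadjusted p under 0.05 in the TMM fit by edgeR) and 5 lower between the treatments. Upper-quartile factors gave medians of -1.28 and -0.72 for the same comparisons. With glmTreat 0 of the 10 genes were called lower with OD, against 3 called by edgeR's quasi-likelihood test and 3 called by DESeq2. All 10 were lower at an unadjusted p under 0.05 by edgeR. By glmTreat, SP5 with CoCl2 had an adjusted p of 0.0875 and NKD1 between CoCl2 and OD 0.151, so that both lost their calls. The adjusted p alone called 1 gene higher with CoCl2, 10 lower with OD, and 2 higher and 7 lower between CoCl2 and OD. Leaving out 1 library at a time gave a median with OD of -0.75 to -0.62, the latter without control replicate 1. No single library changed a call of these genes. Same-numbered replicates deviated together little, with correlations between -0.00403 and 0.036 over genes, and not every library correlated best with its own number. The numbers were therefore not used to pair the samples, though such small correlations cannot exclude a weak shared batch. With the replicate number as a block 6 genes were called lower with CoCl2 and 3 with OD, as without it. LEF1, with 37 to 63 counts with CoCl2, limits the precision most, with a standard error of 0.142 between the treatments.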
